A study of Mus musculus with 9 samples.

Results

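The H2-T genes are non-classical MHC class I (MHCI) genes in the mouse MHC on chromosome 17. Of these, 5 genes named for the present comparison (H2-T3, H2-T10, H2-T22, H2-T23 and H2-T24) were examined for NLRC5-occupied sites, together with 2 predicted genes (Gm19684 and Gm6034) that start next to H2-T10 and H2-T22 and are transcribed in the opposite direction. They make up 7 of 55450 genes in the GENCODE annotation of GRCm38. The genes were named with earlier results of these data known, among them the peaks at Gm19684 and Gm6034, so their occupancy is a description and not an independent finding. A peak was given to a gene when it overlapped the gene body or lay within 5 kb of its transcription start site (TSS). In addition, no other annotated TSS could be nearer to the peak centre.

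ChIP-seq was performed on bead-sorted T cells with an antibody raised against mouse NLRC5, on chromatin pooled from 5 mice of 6 to 12 weeks of age for each genotype. WT and Nlrc5F/F mice had a C57Bl/6 (H2b) background, whereas Rfx5-/- mice, which lack the RFX subunit RFX5, had a mixed Sv129/C57Bl/6 (H2b) background. The WT library is represented by 5 pseudo-replicates, A to E, which are subsets of the reads of 1 library, and Nlrc5F/F, which carries a functional Nlrc5 gene, is the biological repeat of WT. Of the 9 samples in the series, the 7 with a peak list were used, while neither the Nlrc5-/- library (the control in peak calling) nor the undivided WT reads were analysed here.

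The lists held 8593 peaks in all, with 459 to 1436 in a WT list, 1949 in Nlrc5F/F and 1970 in Rfx5-/-. The WT numbers are those the paper gives for its low-stringency calls, before its filter for reproducibility between pseudo-replicates. The paper kept only a small number of peaks after that filter. A peak in a list is thus not by itself an NLRC5 site, and occupied means here that a peak was called. The lists give positions and scores, a score being the authors' -log10 p-value against a control, Nlrc5-/- reads as far as the methods say. Scores are compared here within a list or among the 5 WT pseudo-replicates, but not between genotypes. Read numbers per peak are not in the lists, so no counting interval can be given. Differences between pseudo-replicates show the sampling of reads from 1 library. They do not show the spread between animals, and no comparison between genotypes has a replicate. The lists hold no measure of the cells themselves, so neither the T cell label nor the genotypes could be checked against marker genes.

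MHCI molecules present antigen or act as ligands of immune receptors. NLRC5 is a transactivator of MHCI genes that has no known DNA-binding domain of its own and is thought to reach promoters through a complex of DNA-binding proteins assembled on the S, X and Y boxes (the SXY module). RFX, of which RFX5 is a subunit, binds the X box, and NF-Y binds the CCAAT sequence of the Y box. H2-T22 and H2-T10 encode closely related molecules known as ligands of some gamma delta T cell receptors. H2-T23 encodes Qa-1, the ligand of the inhibitory CD94/NKG2A receptor, and H2-T3 encodes the thymus leukaemia (TL) antigen, which binds CD8 alpha homodimers.

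H2-T10 and H2-T22 lie head to head with their partners. The TSS of H2-T10 (ENSMUSG00000079491, minus strand, chr17:36115876-36121465, annotated as a polymorphic pseudogene) was 213 bp from that of Gm19684 (ENSMUSG00000092277, plus strand, chr17:36121678-36129692). The TSS of H2-T22 (ENSMUSG00000056116, minus strand, chr17:36037128-36042747) was 214 bp from that of Gm6034 (ENSMUSG00000073407, plus strand, chr17:36042961-36058645). The other genes examined, all on the minus strand, were H2-T23 (ENSMUSG00000067212, chr17:36029773-36032855), H2-T24 (ENSMUSG00000053835, chr17:36005695-36020560) and H2-T3 (ENSMUSG00000054128, chr17:36185572-36190287). Gm19684 and Gm6034 each have 3 exons, with 88, 104 and 159 coding bases in both.

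The sequences between the divergent TSSs are shown because the WT peaks cover them whole. They are given 5' to 3' on the minus strand, toward the H2-T gene, from the GRCm38 reference (chr17:36121466-36121677, 212 bases, and chr17:36042748-36042960, 213 bases). Capitals mark, in the order of the strand, a match to ATTGGC, the S box, the X box, a match to ATTGGC that begins the Y box, and a match to GCCAAT, which is ATTGGC on the other strand.
H2-T10/Gm19684: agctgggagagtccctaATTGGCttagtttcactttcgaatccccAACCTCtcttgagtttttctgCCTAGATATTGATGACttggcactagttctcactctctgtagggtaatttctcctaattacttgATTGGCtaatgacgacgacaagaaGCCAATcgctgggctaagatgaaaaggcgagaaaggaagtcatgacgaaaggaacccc
H2-T22/Gm6034: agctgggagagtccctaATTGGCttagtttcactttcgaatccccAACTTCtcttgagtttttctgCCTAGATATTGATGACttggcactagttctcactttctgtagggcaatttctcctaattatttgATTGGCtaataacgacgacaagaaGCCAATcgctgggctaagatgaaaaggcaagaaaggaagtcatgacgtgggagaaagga

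The same arrangement was present at both sites. The X box, 16 bases that end in TGATGAC, was identical (cctagatattgatgac). The Y box (attggcta) was also identical and started 48 bases after the X box at both sites. The S box, taken as the 6 bases that end 15 bases before the X box, was aacctc at H2-T10 and aacttc at H2-T22, the difference being C4T counted from the 5' end of the S box (H2-T10 base first). Its place was set by this distance and not by a motif search. With looser spacing, the paper also found a sequence similar to the S box farther upstream at both promoters, which contains a Y sequence. The X box centre lay 138.5 bp from the TSS of H2-T10 and 139.5 bp from that of H2-T22, and 74.5 bp from the TSS of the partner at both. The Y box centre lay 78.5 bp from the TSS of H2-T10 and 79.5 bp from that of H2-T22, and 134.5 bp from the TSS of the partner at both, so that the X box was nearer to the predicted gene and the Y box nearer to the H2-T gene. Between the TSSs 201 bases were identical, 6 were substituted (C49T, which is the S box difference, C101T, T111C, C127T, G141A and G183A, counted from the first base of the H2-T10 sequence) and 11 were gapped, an identity of 97.1% of the aligned bases. The first 500 bases of H2-T10 and H2-T22 were 98.4% identical, and those of Gm19684 and Gm6034 were 95.6% identical with 82 gapped bases.

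Together, these letters were uncommon in promoters. The shares below were not set against those expected in random sequence, so those of the single words do not show that either is rare. Among 32851 RefSeq promoters of GRCm38.p6, each 250 bases before to 50 after the start and searched on both strands, TGATGAC was present in 3.23%, ATTGGC in 14.7% and 3 or more ATTGGC in 0.414%. TGATGAC together with 3 or more ATTGGC occurred in 0.0183% of them, or 6 promoters. The cut of 3 equals the number of ATTGGC between the TSSs at both sites, so this share is a description and not a test. RefSeq promoters were found for 4 of the 7 genes. Those of H2-T22 and Gm6034, which overlap each other and are themselves among the 6, held 1 TGATGAC and 3 ATTGGC each. That of H2-T23 held 0 and 1, and that of H2-T3 held 0 and 0. In the wider 2 kb around the TSS, H2-T23 held 1 TGATGAC and 1 ATTGGC, H2-T24 held 0 and 1, and H2-T3 held 0 and 0. In that window H2-T10 and H2-T22 each held 3 and 3, and Gm19684 and Gm6034 each held 2 and 3. No match says only that these letters are not in the window.

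NLRC5 peaks were found at both divergent promoters in all 5 WT lists and in Nlrc5F/F, and at neither in Rfx5-/-. By the nearest TSS, every one of these peaks was given to the partner gene, although each WT peak held both TSSs. Thus 2 of the 7 genes (Gm19684 and Gm6034) were occupied in each WT list and in Nlrc5F/F. The same rule gave a peak to 0.465%, 0.525%, 1.03%, 0.766% and 0.95% of all annotated genes in WT A to E and to 1.23% in Nlrc5F/F. In Rfx5-/- 0 of the 7 genes were occupied, beside 1.16% of all genes. Genes occupied in all 5 WT lists numbered 23, or 0.0415% of all genes, and those also occupied in Nlrc5F/F numbered 15, or 0.0271%.

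With a promoter window of 500 bp upstream to 50 bp downstream of the TSS, in which a peak counts for every gene whose window it overlaps, 4 of the 7 genes were occupied in each WT list and in Nlrc5F/F: H2-T10, Gm19684, H2-T22 and Gm6034. This compares with 0.258%, 0.269%, 0.281%, 0.245% and 0.307% of all genes in WT A to E, 0.195% in Nlrc5F/F and 0.184% in Rfx5-/-, where 0 of the 7 were occupied. The share of all genes was 0.0433% for all 5 WT lists and 0.0252% for these and Nlrc5F/F. Peaks do not tell which gene of a divergent pair is regulated from a shared site. Besides the H2-T10 pair, a further gene, Gm7030 (minus strand, chr17:36109719-36129425), spans the whole peak.

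Few pairs of divergent TSSs this close were occupied. In the annotation 1472 pairs had divergent TSSs at most 300 bp apart, and a peak between the TSSs was present at 0.679%, 0.815%, 0.951%, 0.747% and 0.679% of them in WT A to E, at 0.679% in Nlrc5F/F and at 0.611% in Rfx5-/-. Both H2-T pairs were among the 4 pairs (0.272%) occupied in all 5 WT lists and among the 3 (0.204%) also occupied in Nlrc5F/F. Divergent genes whose annotated transcripts overlap at their starts, such as Psmb9 and Tap1, were not counted as pairs.

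**Figure D1:**
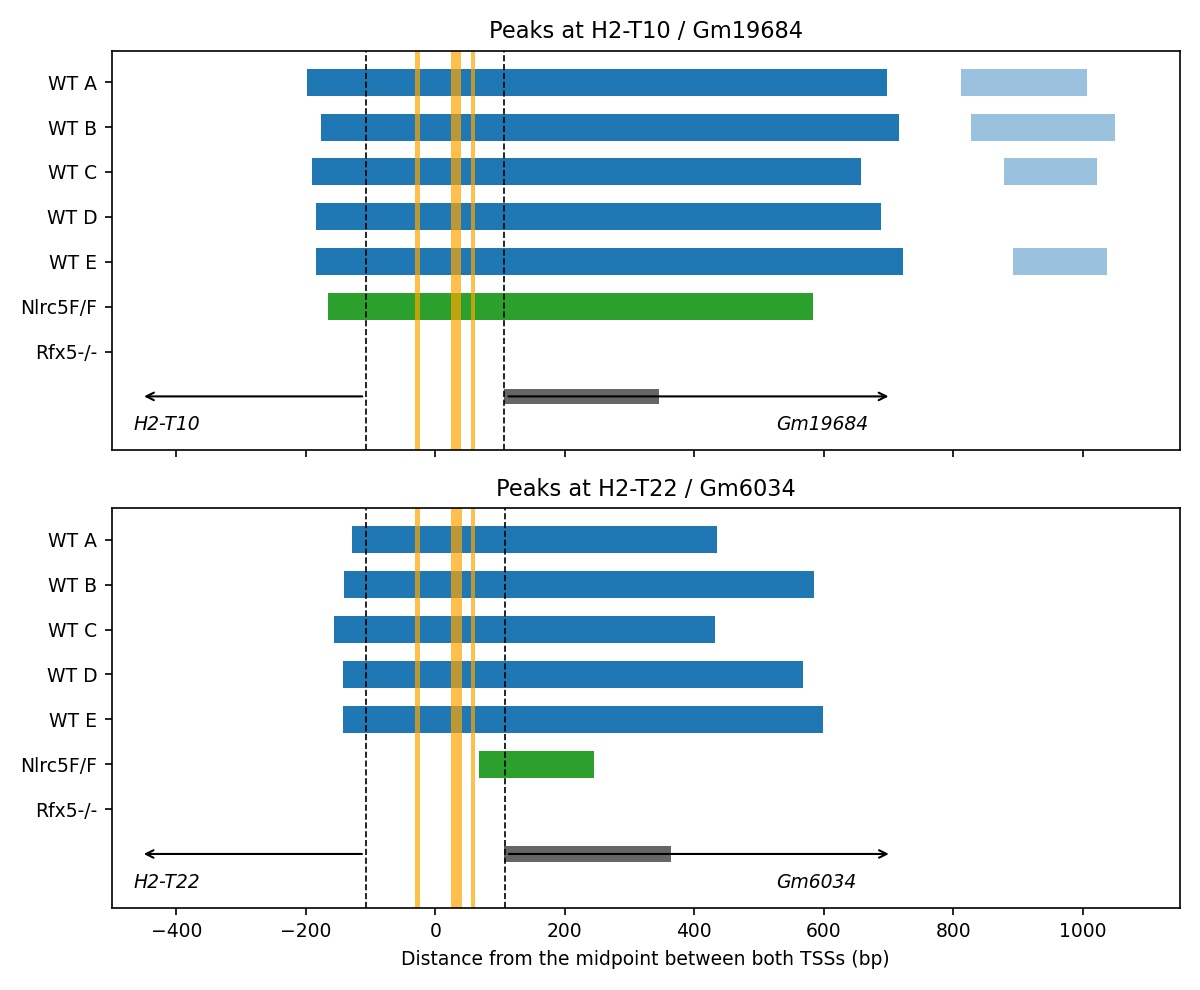
Peaks of each list at both divergent promoters, as bars along the distance in bp from the midpoint between the TSSs (dashed lines). Orange bands are the Y, X and S boxes from left to right, the grey bar is the first exon of the partner gene, and pale bars are peaks in the first intron of Gm19684. All 5 WT bars hold both TSSs and the boxes at both promoters, the Nlrc5F/F bar at H2-T22 holds neither the boxes nor the H2-T22 TSS, and the Rfx5-/- row is empty.

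The peak at H2-T10/Gm19684 was among the strongest of each list. Its score was 192.7, 203.1, 152.9, 151.0 and 158.4 in WT A to E, with a mean of 171.6 ± 24.4 (SD, n = 5 pseudo-replicates), and 56.5 in Nlrc5F/F. It ranked 2 in all 6 lists. Its width was 896, 893, 848, 873 and 907 bp in WT A to E (883 ± 23.3 bp, SD, n = 5) and 750 bp in Nlrc5F/F, and it was the widest peak of the list in all of these but WT C, where it was second. The median peak was 100 to 139 bp wide in the WT lists and 99 bp wide in Nlrc5F/F.

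At H2-T22/Gm6034 the score was 22.7, 27.7, 30.9, 36.4 and 16.6 in WT A to E, with a mean of 26.8 ± 7.61 (SD, n = 5), and 6.12 in Nlrc5F/F. The peak ranked 9, 9, 8, 7 and 13 in WT A to E and 262 of 1949 in Nlrc5F/F. It was 564, 726, 589, 710 and 741 bp wide in WT A to E (666 ± 82.9 bp, SD, n = 5) and 178 bp wide in Nlrc5F/F. The peak was present in all 6 lists. The lists differ in length and in the reads behind them, and the 5 WT ranks come from 1 library, so the ranks are set side by side and the difference between WT and Nlrc5F/F was not tested.

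The H2-T10 peak had the higher score and the greater width in each of these 6 lists, and the values at both promoters did not overlap among the WT lists. Within a WT list its score was higher by 145 ± 27.5 (SD, n = 5; range 115 to 175), or 6.90 ± 2.30 times (range 4.15 to 9.56). The two-sided exact sign-flip permutation test over the 5 pseudo-replicates gave p = 0.0625, which is the smallest p that 5 pairs allow, so this design cannot go below 0.05. The H2-T10 peak was wider by 217 ± 75.8 bp (SD, n = 5; range 163 to 332 bp), again with p = 0.0625 in the exact permutation test. In Nlrc5F/F the score at H2-T10 was 9.23 times that at H2-T22 and the width 4.21 times. The tests cover the sampling of reads only.

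**Figure D2:**
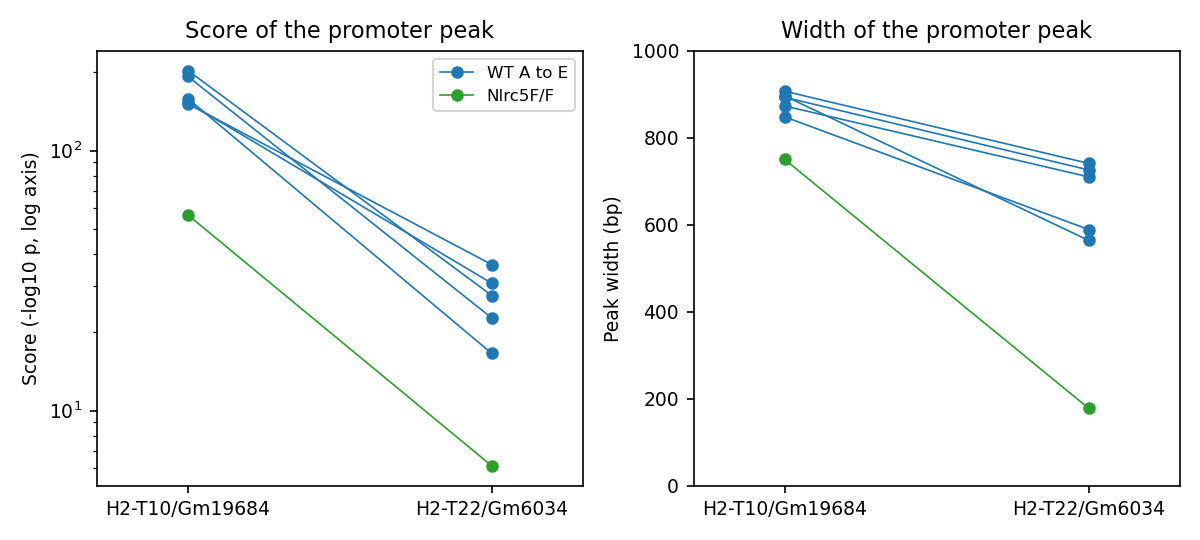
Score (-log10 p, log axis) and width (bp) of the peak at each divergent promoter, with a line joining both values of a list. Every line falls from H2-T10/Gm19684 to H2-T22/Gm6034, with WT in blue and Nlrc5F/F in green.

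Peaks lay toward the partner genes. The centre of the H2-T10/Gm19684 peak was 249, 270.5, 234, 251.5 and 269.5 bp from the midpoint between the TSSs in WT A to E, always on the side of Gm19684 (254.9 ± 15.3 bp, SD, n = 5), and 209 bp in Nlrc5F/F. At H2-T22/Gm6034 the centre was 152.5, 222.5, 138, 212.5 and 228 bp from the midpoint in WT A to E (190.7 ± 42.2 bp, SD, n = 5) and 156.5 bp in Nlrc5F/F, always on the side of Gm6034. These offsets exceed the distance from the midpoint to the partner TSS, so that the middle of each called interval lay inside the annotated predicted gene. The lists hold no summits, so the centre does not show where the signal was highest.

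In the WT lists, 7.84% to 10.38% of the H2-T10/Gm19684 peak lay within H2-T10, 23.4% to 25% between the TSSs and 65.1% to 68.4% past the TSS of Gm19684. The peak ended 312 to 377 bp past the first exon of Gm19684 (240 bp long), in its first intron. At H2-T22/Gm6034 4.08% to 8.49% lay within H2-T22, 28.7% to 37.8% between the TSSs and 55.3% to 66.4% past the TSS of Gm6034, with the end 69 to 235 bp past the first exon (257 bp long). In both pairs the larger share of the peak was past the TSS of the partner gene.

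The WT peaks agreed closely in extent at H2-T10/Gm19684. The bases shared by all 5 lists (834 bp) were 90.5% of those covered in any (922 bp), against 74.4% (562 of 755 bp) at H2-T22/Gm6034. With Nlrc5F/F included, the shared part was 81.3% at H2-T10/Gm19684 and 23.6% at H2-T22/Gm6034. The Nlrc5F/F peak at H2-T22/Gm6034 (chr17:36042922-36043099) started 175 bp from the TSS of H2-T22 and covered the TSS and part of the first exon of Gm6034.

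The boxes shown in capitals above lay inside the peak in all 5 WT lists at both promoters, away from the middle of the called interval. The paper describes the modules as lying near the peak centre. Toward the H2-T gene the WT peaks reached 200 to 223 bp beyond the X box at H2-T10 and 154 to 181 bp at H2-T22. Toward the partner gene they reached 618 to 683 bp and 392 to 558 bp. The peak centre was 222.9 ± 15.3 bp (SD, n = 5) from the X box centre at H2-T10 and 158.2 ± 42.2 bp at H2-T22, in both cases toward the partner. In Nlrc5F/F the boxes were inside the H2-T10 peak, with the centre 177 bp from the X box, and outside the H2-T22 peak, with the centre 124 bp from it.

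A second, weak peak was called at Gm19684, and whether it is a site apart from the promoter peak was not tested. A further peak lay in the first intron of Gm19684 in 4 of the 5 WT lists, 706 to 943 bp after the TSS and 111 to 221 bp beyond the end of the promoter peak. Its score was 12.2 in WT A, 6.16 in WT B, 4.48 in WT C and 4.48 in WT E, and it ranked 14, 152, 699 and 575. WT D, Nlrc5F/F and Rfx5-/- held no peak there, and none of the 7 lists held a second peak at Gm6034. Only 2 of the 4 peaks had a score of at least 5, a threshold added after the data were seen.

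No peak was given to H2-T3, H2-T23 or H2-T24 in any of the 7 lists. The peak nearest to the TSS of H2-T23 was 9843 to 9870 bp away in the WT lists and 10067 bp away in Nlrc5F/F. For H2-T24 it was 20917 to 22165 bp and 22362 bp away. For H2-T3 it was 31892 bp away in WT A, 67666 to 68028 bp away in the other WT lists and 68132 bp away in Nlrc5F/F. For H2-T23 the distances are those to the H2-T22/Gm6034 peak. A peak below the authors' threshold would not be in the lists, so absence here means that none was called.

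No Rfx5-/- peak was called in the H2-T region, where the other lists held peaks only at both promoters and in the Gm19684 intron. The region ran from 5 kb beyond H2-T24 to 5 kb beyond H2-T3 (194.6 kb). It held 3, 3, 3, 2 and 3 peaks in WT A to E, 2 in Nlrc5F/F and 0 in Rfx5-/-. The Rfx5-/- list was the longest and held 71 peaks on chromosome 17. Its highest score was 33.8 and its median 4.46, and the length of a list does not measure how well weak sites were detected. All of the peaks in the region were those described above. The Rfx5-/- peak nearest to the TSS was 826223 bp from H2-T10 and 747505 bp from H2-T22. These distances were not set against the usual spacing of the 71 peaks, so they do not describe a trait of the region. No Rfx5-/- peak overlapped either promoter site when these were extended by 1 kb or 5 kb.

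Other sites recurrent in WT were not all without an Rfx5-/- peak. Of 32 sites present in all 5 WT lists, 10 (31.2%) overlapped an Rfx5-/- peak, and 11 overlapped an Nlrc5F/F and no Rfx5-/- peak, among them both H2-T promoters. The loss of RFX5 and the mixed strain background of the Rfx5-/- mice cannot be told apart in these data, and there was 1 library of each genotype.

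**Figure D3:**
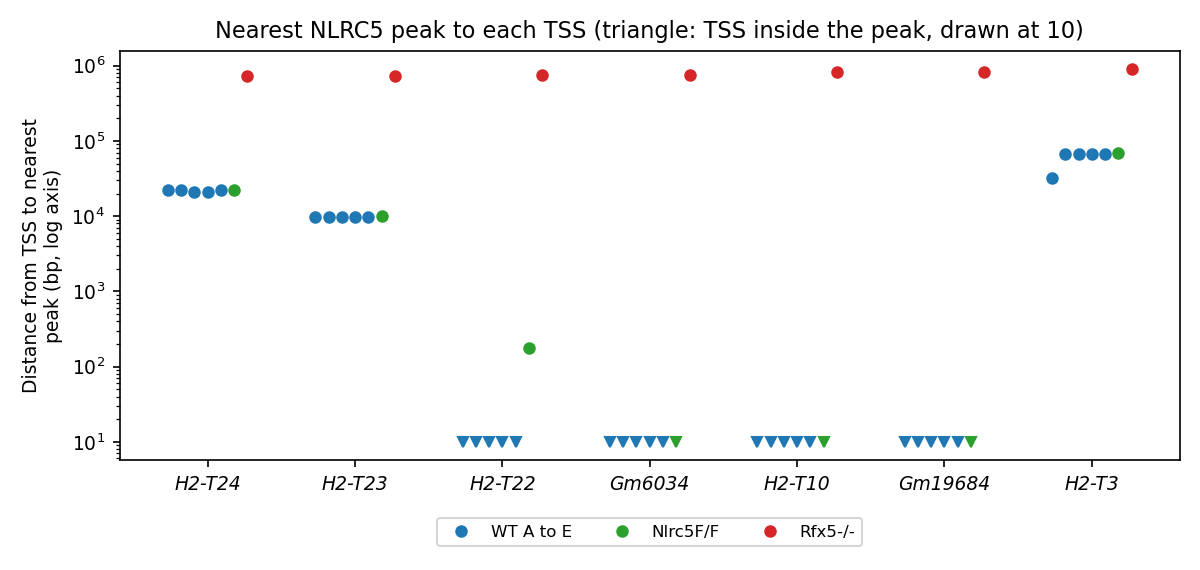
Distance in bp (log axis) from the TSS of each gene to the nearest peak of each list, with WT in blue, Nlrc5F/F in green and Rfx5-/- in red. Triangles at the bottom are TSSs inside a peak. H2-T10 and Gm19684 are inside a peak in all 6 lists other than Rfx5-/-, the TSS of H2-T22 is outside it in Nlrc5F/F, and every Rfx5-/- point lies at 725318 bp or above.

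Because the authors kept reads with a unique position only, the uniqueness of the sequence is given beside these results. The measure is the share of 50-base windows, in the 2 kb around the TSS, whose sequence occurs once in the genome. It was 75.2% at H2-T10 and 75.2% at H2-T22, and 79.7% at both Gm19684 and Gm6034. Of the genes without a peak, H2-T24 had 99.3% and H2-T3 88.2%, which is more than at the occupied genes, and H2-T23 had the lowest share, 52.6%. Reads of this length could thus be placed at fewer positions around the H2-T23 TSS, and the part of this in the missing peak was not tested. The read length is not given in the sources used here, and with 100-base windows the share at H2-T23 was 69.1%.

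Between H2-T10 and H2-T22 these shares were close. Between the TSSs 88.2% of windows were unique at H2-T10/Gm19684 and 88.3% at H2-T22/Gm6034, and in the region covered by the WT peaks 90.2% and 92.8%. In the first 500 bp the share was 69.6% in H2-T10 and 70.6% in H2-T22, against 92.8% in Gm19684 and 94.2% in Gm6034. The H2-T side, on which the peaks were shorter, thus had the lower share of unique windows, and its part in the position of the peaks was not tested. Of 2214 windows at the H2-T10 locus 502 were not unique, and all 502 also occurred at the H2-T22 locus. Between the promoter peak and the intron peak of Gm19684 the share fell to 14%, at 793 bp from the midpoint between the TSSs. Its part in the gap between these peaks was not tested. At H2-T22/Gm6034, without an intron peak, the share fell to 6% at 842.5 bp.

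**Figure D4:**
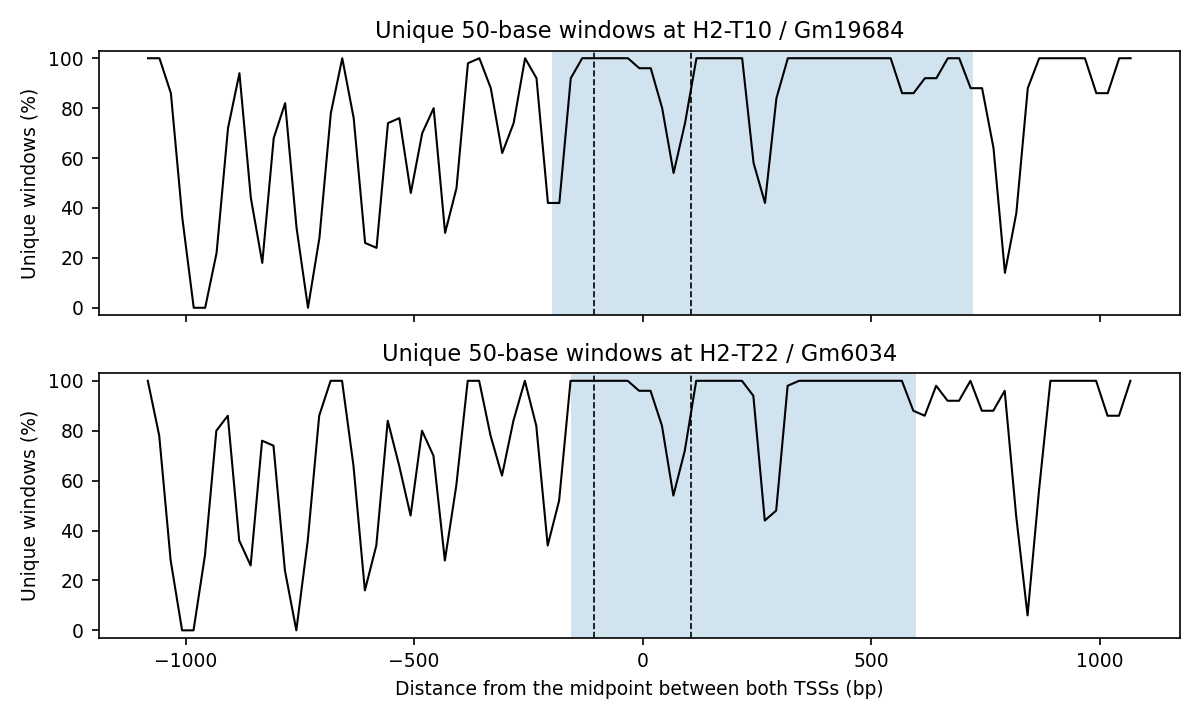
Share of unique 50-base windows (%) along the distance in bp from the midpoint between the TSSs (dashed lines), with the extent covered by any WT peak shaded. At both promoters the share dips repeatedly on the left, inside the H2-T gene, and is mostly high across the shaded extent.

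Among sites present in the same 6 lists, the nearest to H2-T10 (median WT rank 2) were H2-D1 (1), H2-Q7 (3) and H2-K1 (4), which encode the classical molecules H2-D and H2-K and a non-classical molecule of the Qa-2 group. The nearest to H2-T22 (median WT rank 9) were a site on chromosome 15 whose nearest gene was Gm28502 (9), H2-Q6 (8) and the promoter shared by Psmb9 and Tap1 (10), which encode an immunoproteasome subunit and a peptide transporter subunit. In Nlrc5F/F the rank of these was 5, 11 and 46, against 262 for H2-T22/Gm6034.

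Measured from the H2-T TSS, the centre of the peak lay at -361 ± 15.3 bp for H2-T10 and -298 ± 42.2 bp for H2-T22 (SD, n = 5 pseudo-replicates; negative values are upstream). Measured from the partner TSS it lay at 148 ± 15.3 bp for Gm19684 and 83.7 ± 42.2 bp for Gm6034. For comparison the centre lay at -71.1 ± 27.6 bp for H2-K1, -154 ± 25.3 bp for H2-Q7, -42.9 ± 11.9 bp for H2-Q6 and 209 ± 51.0 bp for H2-D1. The H2-T values were the farthest upstream of these. The distances depend on the annotated TSS, and the difference between genes was not tested.

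Among the other genes of the pathway, a promoter peak was present in all 5 WT lists for 7 of 25 further MHCI genes (23 of which are annotated) and for 2 of 11 genes of peptide processing and loading, B2m and Tap1. In Nlrc5F/F it was present for 5 and 2 of these. Of 10 genes that encode regulators of the SXY complex 0 had one in a WT list or in Nlrc5F/F, and 0 genes of these 3 lists had one in Rfx5-/-. The shares of all genes with a promoter peak are those given above.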

How the data were processed

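NLRC5-bound chromatin of T cells was sequenced by the authors on the Illumina HiSeq 2000, with 1 library per genotype. Mapping to GRCm38 was done by the authors with Bowtie 0.12.7, and reads without a unique position were discarded. MACS2 2.0.10.20130520 (no-model, to-large, p = 0.001) was then run by the authors against Nlrc5-/- reads. Settings and control for the Nlrc5F/F and Rfx5-/- lists are not given separately. The deposited score of each peak was read as the authors' -log10 p-value, because the lowest score of every list (3.01 to 3.19) lies just above the -log10 of that threshold. The methods give an equal number of reads for each pseudo-replicate and only a lower, minimum number for the other genotypes, so the depth of Nlrc5F/F and Rfx5-/- relative to a WT list is not known, and the files hold no read counts.

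Genes and TSSs were taken from GENCODE M21 and sequences from the GRCm38.p6 reference. Windows of 36, 50 and 100 bases were counted in the genome on both strands without mismatches. Segments were aligned globally with Biopython 1.88. Paired values were compared with the exact sign-flip permutation test in Python 3.11.15. Peak assignment, this test and the window counts were tested on simulated data.

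The genes named were the 7 members and, for each promoter peak, the 3 sites present in the same lists with the nearest median WT rank. Gm7030 was named after its position was seen. The members and lists were chosen with earlier results of these data known. Alternatives were a score of at least 5, other distances and promoter windows, nearest TSS among the members alone, leaving out each pseudo-replicate, presence in at least 3 WT lists, ratios, a weighted centre, extended sites and an overlap of 50%.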

Additional observations from a re-analysis of the deposited data

How the results depend on the processing

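Across 51 alternatives, 47 values kept their direction and their side of the test's threshold, or stayed equal (counts) or within 1 SD (positions). Some of these could not have moved. No alternative of the score and width tests could reach the threshold, so only their direction was free to change. A score of at least 5 removed no promoter peak, so it could not change the positions. With the promoter window in place of the nearest TSS, the number of occupied genes was 4 instead of 2 in all 5 WT lists and 4 instead of 2 in Nlrc5F/F, because a shared peak then counts for both genes of a pair. When 50% of both intervals had to overlap, 1 instead of 2 Nlrc5F/F peaks matched the WT peaks, and the one lost was that at H2-T22/Gm6034, which covered 24.02% to 31.6% of the WT peaks. With a score of at least 5 the intron site of Gm19684 was in 2 instead of 4 WT lists. Leaving out each pseudo-replicate gave 2 occupied genes every time, a score difference of 137 to 152, a width difference of 189 to 231 bp, and a centre at 251 to 260 bp for H2-T10/Gm19684 and 181 to 204 bp for H2-T22/Gm6034. With 4 pairs the smallest p of the exact permutation test is 0.125, so these tests say nothing about stability. The count of 0 in Rfx5-/- was 0 under every alternative run. No paired analysis was possible because the genotypes have 1 library each and the numbers of the WT pseudo-replicates have no counterpart in Nlrc5F/F or Rfx5-/-. The depth of the lists, the control, which is not given separately for Nlrc5F/F and Rfx5-/-, and single libraries limit all comparisons between genotypes.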

Other observations

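The other pairs of divergent TSSs at most 300 bp apart with a peak between them in all 5 WT lists were Chchd4/Tmem43 (157 bp apart, chromosome 6) and Gm16343/Ifrd2 (217 bp apart, chromosome 9), which were named after their values were seen. Chchd4/Tmem43 had no such peak in Nlrc5F/F or Rfx5-/-, and Gm16343/Ifrd2 had one in both. Of the 4 pairs, the H2-T pairs were the ones with a peak in Nlrc5F/F and none in Rfx5-/-. The promoter shared by Psmb9 and Tap1 had the same pattern over the lists. It was not among the pairs because the annotated TSS of Psmb9 lies within Tap1. The difference between the pairs was not tested.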
